A study of Mus musculus with 6 samples.

Results

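The cytosolic nucleic acid sensing pathway was followed here through 10 genes, taken by name from the deposited expression table of 51912 genes. They encode the RNA sensors RIG-I (Ddx58), MDA5 (Ifih1) and LGP2 (Dhx58), the DNA sensor cGAS (Mb21d1), the sensor ZBP1 (Zbp1), the adaptors MAVS (Mavs) and STING (Tmem173), the kinase TBK1 (Tbk1) and the transcription factors IRF3 and IRF7 (Irf3, Irf7). All 10 were found. They were measured by RNA sequencing in B16F10, a pigmented mouse melanoma cell line. The labels give 3 libraries with the Anxa10 gene, which encodes annexin A10, knocked out (A10KO, genotype ANXA10-/-, replicates 1, 13 and 14) and 3 wild-type libraries of the same line (WT, replicates 1, 2 and 3). No treatment, stimulus or infection is given for either group, and the labels do not say whether nucleic acid had been added to the cells. The labels do not say whether the replicate numbers stand for clones or separate cultures. The p-values below weigh the difference between the groups only against the scatter among these 6 libraries, which could be technical scatter.

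In this pathway RIG-I and MDA5 bind double-stranded or otherwise foreign RNA in the cytoplasm and pass the signal to MAVS on mitochondria, while LGP2, which lacks the signalling domains of the others, modulates them. cGAS binds cytoplasmic DNA and makes a cyclic dinucleotide that activates STING on the endoplasmic reticulum. Both branches meet at TBK1, which phosphorylates IRF3 and IRF7 to switch on interferon genes. Secreted interferon then raises several of the sensors themselves, along with IRF7 and ZBP1, through its receptors.

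RefSeq promoter windows of GRCm38.p6, which reach from 250 bases before to 50 bases after a transcript start, were at hand for 7 of the 10 genes. They were searched on both strands for GAAA, any 2 bases and GAAA again, the core of the element bound by IRF family factors. It was found in 2 of the 7, Ddx58 and Ifih1, and in 3.44% of all 32851 windows of the same length. The windows of Mavs, Mb21d1, Irf3, Irf7 and Tbk1 did not hold these letters. Those of the 3 members with the lowest p-values are shown, with the match in capitals; the Ddx58 match lies on the opposite strand.
Ddx58 promoter, chr4:40239776-40240075, minus strand: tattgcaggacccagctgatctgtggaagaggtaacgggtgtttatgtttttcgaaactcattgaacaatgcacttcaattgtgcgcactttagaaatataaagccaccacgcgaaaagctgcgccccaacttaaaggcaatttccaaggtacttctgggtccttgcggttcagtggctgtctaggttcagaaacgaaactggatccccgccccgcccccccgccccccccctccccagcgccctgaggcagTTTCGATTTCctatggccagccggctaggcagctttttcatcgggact
Ifih1 promoter, chr2:62646206-62646505, minus strand: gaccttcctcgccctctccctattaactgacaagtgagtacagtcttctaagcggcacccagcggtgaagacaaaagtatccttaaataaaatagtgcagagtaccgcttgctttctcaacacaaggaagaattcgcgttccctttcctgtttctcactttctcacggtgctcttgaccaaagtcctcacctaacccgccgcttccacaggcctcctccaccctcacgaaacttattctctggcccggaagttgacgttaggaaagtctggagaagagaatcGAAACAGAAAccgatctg
Irf7 promoter, chr7:141266375-141266674, minus strand: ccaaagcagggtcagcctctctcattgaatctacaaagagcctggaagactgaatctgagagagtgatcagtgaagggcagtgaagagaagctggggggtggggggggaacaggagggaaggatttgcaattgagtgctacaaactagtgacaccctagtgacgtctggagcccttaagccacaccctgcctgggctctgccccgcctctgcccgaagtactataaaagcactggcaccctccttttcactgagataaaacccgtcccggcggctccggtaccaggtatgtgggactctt
Counted from the transcript start as base 1, the Ddx58 match covered bases 3 to 12 and the Ifih1 match bases 33 to 42, both downstream of the start. A match describes the letters of the window and was not tested as a binding site.

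The deposited values are TPM, a level scaled by transcript length and by the library total, which keep no record of depth. The depth of each library is therefore unknown, and between 11889 and 12236 genes per library reached 1 TPM. Anxa10 itself was listed at 0 TPM in all 6 libraries, A10KO and WT, so it gave no check of the labels. All 10 melanocyte markers examined, among them Tyrp1, Dct, Pmel and Mlana, were at 1 TPM or more in some library, and their summed level was 9548 to 11455 TPM in A10KO and 9038 to 10148 TPM in WT. Mitochondrially encoded transcripts took 7.93%, 14.7% and 7.37% of all TPM in A10KO replicates 1, 13 and 14, against 6.32% to 6.56% in WT. The test was limma, fitted on log2(TPM + 1) over the 12068 genes that reached 1 TPM in 3 or more libraries, with Benjamini-Hochberg adjustment over all of them and a threshold of 0.05. Log2 changes are A10KO minus WT on that scale, where the pseudocount shrinks the change of a low gene. In bulk RNA, fewer cells with a transcript and less of it per cell cannot be told apart.

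Among the sensors, Ddx58 and Ifih1 had lower levels in every A10KO library than in any WT library, and so did Zbp1 and the factors Irf7 and Irf3. The mean level in A10KO was 0.496 times the WT mean for Ddx58 and 0.330 times for Ifih1. Tmem173 was higher in every A10KO library than in any WT library, and Dhx58, Mb21d1, Mavs and Tbk1 overlapped between the groups. Of the 10 members, 9 passed the filter on low values and 0 of these were called by limma at an adjusted p under 0.05, in a fit that called 0.0414% of all tested genes (0.0249% lower and 0.0166% higher). At an unadjusted p under 0.05, 3 of the 9 were lower (Ddx58, Ifih1 and Irf7) and 0 were higher, where 6.27% and 2.56% of all tested genes were (8.83% in either direction). The groups did not overlap for 4 of the 9 tested members that were lower and 1 that was higher, against 11.5% and 5.61% of all tested genes (17.1% in either direction). Irf7 passed the filter only through the WT libraries and so had to differ, which bears on each of these counts and on the members' median. The median log2 change was -0.28 over the 9 tested members, Irf7 among them, and -0.04 over all tested genes. That of the members was -0.13 without A10KO replicate 13 and -0.10 without WT replicate 2. With a filter of 5 TPM it was -0.035, over 5 members that do not include Irf7.

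**Figure D1:**
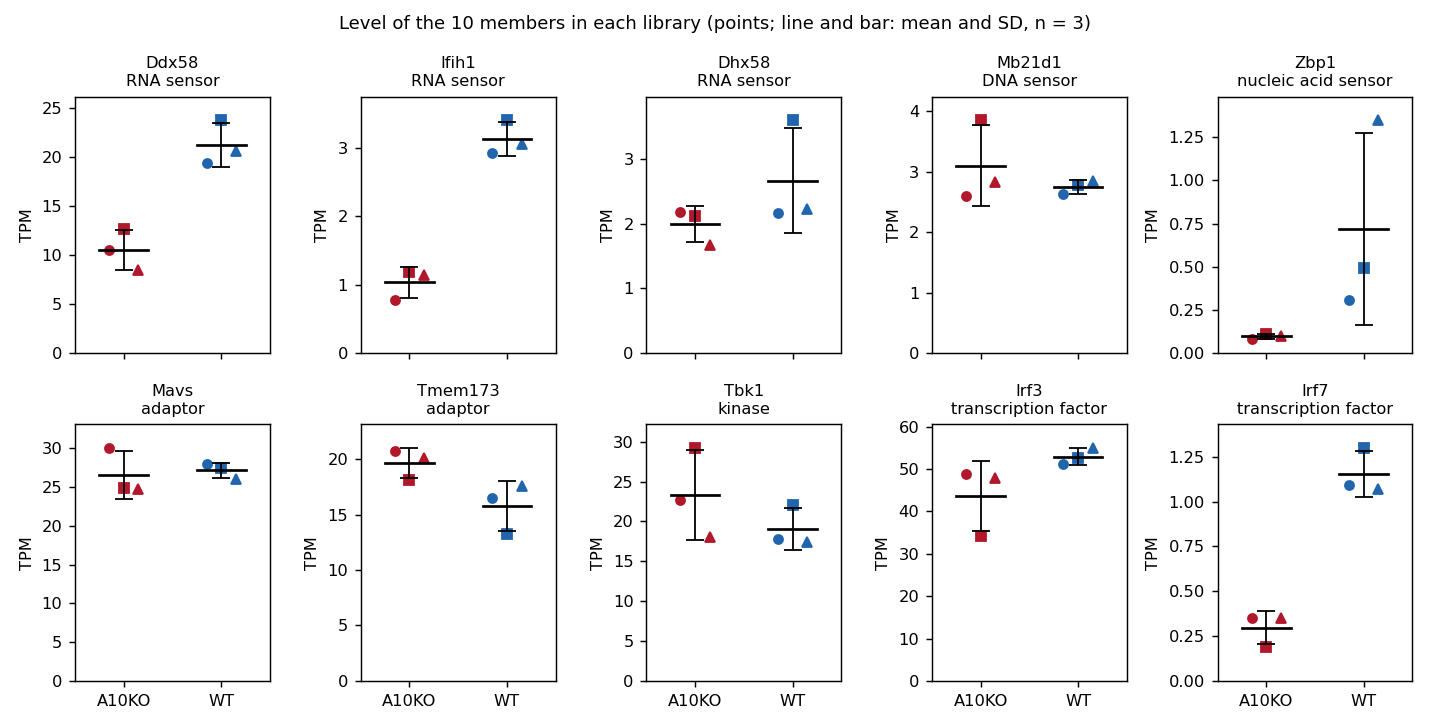
TPM of each member in each library, with the 3 A10KO libraries left (red; circle, square and triangle for replicates 1, 13 and 14) and the 3 WT libraries right (blue; replicates 1, 2 and 3). Lines and bars give the mean and SD. Ddx58, Ifih1, Zbp1, Irf3 and Irf7 lie lower in all A10KO libraries than in any WT library, and Tmem173 lies higher.

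Ddx58 encodes RIG-I, which recognises RNA ends that carry triphosphates. It stood at 10.51, 12.63 and 8.53 TPM in A10KO replicates 1, 13 and 14, against 19.47, 23.82 and 20.62 TPM in WT replicates 1, 2 and 3. The highest A10KO library lay well below the lowest WT library. The means were 10.6 ± 2.05 TPM in A10KO and 21.3 ± 2.25 TPM in WT (SD, n = 3 each), with a log2 change of -0.96 (SE 0.18, 95% interval -1.39 to -0.53, limma adjusted p = 0.206). The unadjusted p was 0.000992, which placed Ddx58 at rank 58 of the 12068 tested genes. Over 15 alternative settings and left-out libraries the change stayed between -1.09 and -0.83, and the adjusted p ran from 0.0532 to 0.823. Ddx58 lies on chromosome 4 (GRCm38, 40203773 to 40239828, minus strand), where the median log2 change of 804 tested genes was -0.08.

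Ifih1 encodes MDA5, which recognises long double-stranded RNA. It stood at 0.77, 1.19 and 1.14 TPM in A10KO replicates 1, 13 and 14, against 2.92, 3.41 and 3.06 TPM in WT replicates 1, 2 and 3. Every A10KO library was below every WT library, although all of these levels are low. The means were 1.03 ± 0.229 TPM in A10KO and 3.13 ± 0.252 TPM in WT (SD, n = 3 each), with a log2 change of -1.03 (SE 0.21, 95% interval -1.51 to -0.54, limma adjusted p = 0.220). On a log2 scale with a pseudocount of 0.1 TPM in place of 1, the log2 change was -1.53. Ifih1 lies on chromosome 2 (62595798 to 62646255, minus strand), where the median log2 change of 987 tested genes was -0.44, 0.10 and -0.003 in A10KO replicates 1, 13 and 14, while Ifih1 itself differed from the WT mean by -1.22, -0.91 and -0.95.

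Dhx58 encodes LGP2, the third receptor of this family. It stood at 2.18, 2.12 and 1.67 TPM in A10KO replicates 1, 13 and 14, against 2.16, 3.60 and 2.23 TPM in WT replicates 1, 2 and 3. The groups overlapped, and WT replicate 2 stood above all the others. The log2 change was -0.28 (95% interval -0.82 to 0.27, limma adjusted p = 0.772), and it was -0.10 without WT replicate 2.

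The levels of the 3 receptor genes were also set against each other. Within each library, and so with no dependence on how libraries are scaled to each other, Dhx58 reached 20.7%, 16.8% and 19.6% of the Ddx58 level in A10KO replicates 1, 13 and 14, against 11.1%, 15.1% and 10.8% in WT replicates 1, 2 and 3. Ifih1 reached 7.33%, 9.42% and 13.4% of the Ddx58 level in the A10KO libraries and 15%, 14.3% and 14.8% in the WT libraries. The groups did not overlap in either ratio. Ddx58 itself stood at 34.9%, 50.7% and 34.5% of the Mavs level in A10KO, against 69.6%, 86.8% and 79.1% in WT, again with no overlap. Of 6 such ratios computed, 4 separated the groups, each with an exact two-sided permutation p = 0.1 (adjusted p = 0.15 over the 6), the smallest that 3 libraries against 3 can give. Ddx58 is a term in all of these 4 except Irf7 over Irf3. Both Ddx58 and Irf7 separated the groups on their own, so the 4 are not separate results. Because Irf7 passed the filter only through the WT libraries, it had to differ, and the p-value of Irf7 over Irf3 lends it no support.

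**Figure D2:**
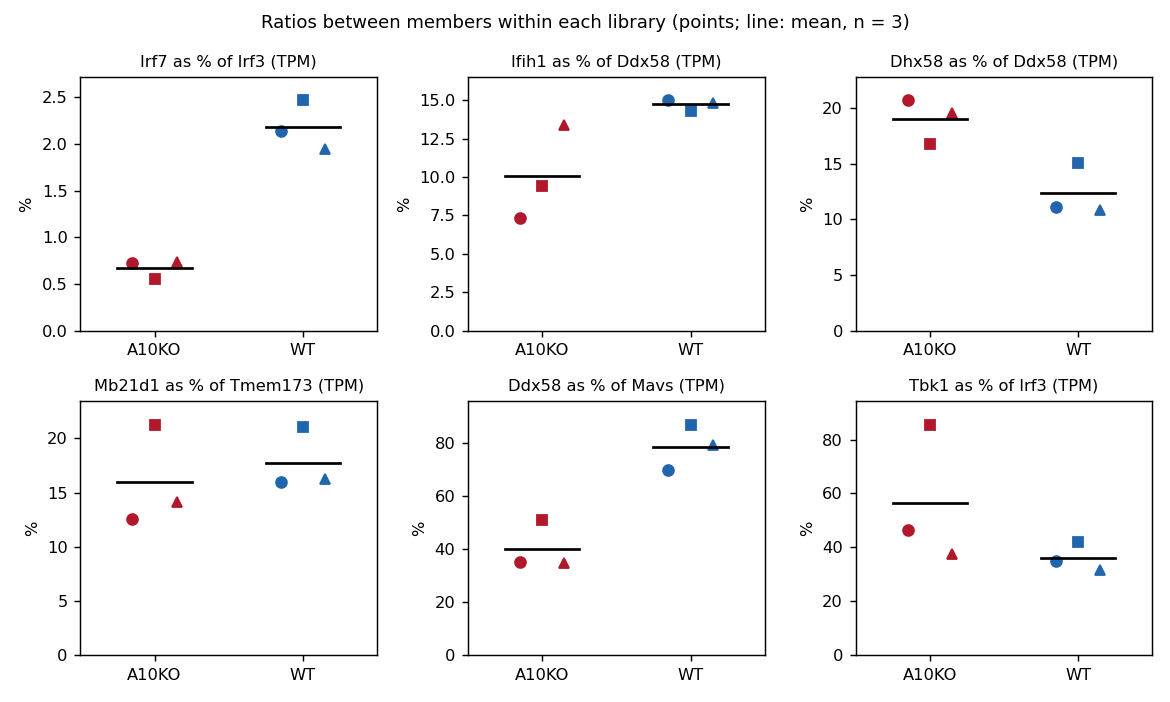
Level of one member as a percentage of another in the same library (TPM over TPM), for 6 pairs, with A10KO left (red) and WT right (blue); circles, squares and triangles are the libraries in label order and lines are group means. Dhx58 relative to Ddx58 is higher in all A10KO libraries than in any WT library, whereas Ifih1 relative to Ddx58, Ddx58 relative to Mavs and Irf7 relative to Irf3 are lower. Irf7 had to differ, since it passed the filter only through the WT libraries.

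Mb21d1 encodes cGAS, the sensor of cytoplasmic DNA. It stood at 2.60, 3.86 and 2.84 TPM in A10KO replicates 1, 13 and 14, against 2.63, 2.78 and 2.85 TPM in WT replicates 1, 2 and 3. The groups overlapped, with A10KO replicate 13 above the rest. The log2 change was 0.12 (95% interval -0.37 to 0.60, limma adjusted p = 0.889), and its sign turned to -0.01 without A10KO replicate 13.

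Zbp1 encodes a sensor of Z-form nucleic acid that can start necroptosis. It stood at 0.08, 0.11 and 0.10 TPM in A10KO replicates 1, 13 and 14, against 0.31, 0.49 and 1.35 TPM in WT replicates 1, 2 and 3. The A10KO libraries lay close together below every WT library, and the WT libraries were far apart. With a single library at 1 TPM or more, Zbp1 was under the filter and was not tested. With no filter, its log2 change was -0.60 (limma adjusted p = 0.708), and the exact two-sided permutation p over the libraries was 0.1.

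Mavs encodes the mitochondrial adaptor of RIG-I and MDA5. It stood at 30.08, 24.89 and 24.74 TPM in A10KO replicates 1, 13 and 14, against 27.96, 27.43 and 26.07 TPM in WT replicates 1, 2 and 3. The A10KO libraries lay on both sides of the WT range. The log2 change was -0.04 (95% interval -0.36 to 0.29, limma adjusted p = 0.955), an interval that leaves out the size measured for Ddx58 and Ifih1 in either direction. The sign of this small value turned under several scalings. The change of Ddx58 relative to Mavs is the within-library ratio given above.

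Tmem173 encodes STING, the adaptor of the DNA branch. It stood at 20.78, 18.14 and 20.08 TPM in A10KO replicates 1, 13 and 14, against 16.51, 13.23 and 17.55 TPM in WT replicates 1, 2 and 3. The lowest A10KO library was just above the highest WT library. The means were 19.7 ± 1.37 TPM in A10KO and 15.8 ± 2.25 TPM in WT (SD, n = 3 each), with a log2 change of 0.31 (95% interval -0.07 to 0.68, limma adjusted p = 0.635). Mb21d1 was at 12.5%, 21.3% and 14.1% of the Tmem173 level in A10KO, against 15.9%, 21.0% and 16.2% in WT, and the groups overlapped.

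Tbk1 encodes the kinase on which both branches converge. It stood at 22.64, 29.25 and 18.04 TPM in A10KO replicates 1, 13 and 14, against 17.77, 22.05 and 17.39 TPM in WT replicates 1, 2 and 3. A10KO replicate 13 was highest, and the groups overlapped. The log2 change was 0.26 (95% interval -0.22 to 0.73, limma adjusted p = 0.755), and 0.09 without A10KO replicate 13.

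Irf3 encodes the factor that is present before stimulation and is activated by phosphorylation. It was the most abundant member, at 48.71, 34.16 and 47.95 TPM in A10KO replicates 1, 13 and 14, against 51.09, 52.67 and 55.02 TPM in WT replicates 1, 2 and 3. All A10KO libraries were below the WT range, with replicate 13 well apart from the others. The log2 change was -0.29 (95% interval -0.67 to 0.09, limma adjusted p = 0.657), and -0.13 without A10KO replicate 13. Irf3 lies on chromosome 7 (44997648 to 45002848, plus strand), where the median log2 change of 901 tested genes was -0.12, -0.31 and -0.11 in A10KO replicates 1, 13 and 14, and the part of the chromosome in these values was not tested. It overlaps Bcl2l12 on the other strand, which stood at 6.22 to 13.8 TPM in A10KO and 12.4 to 17.9 TPM in WT.

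Irf7 encodes the factor that interferon induces and that amplifies interferon production. It stood at 0.35, 0.19 and 0.35 TPM in A10KO replicates 1, 13 and 14, against 1.09, 1.30 and 1.07 TPM in WT replicates 1, 2 and 3. The groups were clearly apart, although every level was near or under 1 TPM. Because Irf7 passed the filter only through the WT libraries, it had to differ in this direction. The means were 0.297 ± 0.0924 TPM in A10KO and 1.15 ± 0.127 TPM in WT (SD, n = 3 each), with a log2 change of -0.73 (SE 0.22, 95% interval -1.24 to -0.23, limma adjusted p = 0.423). With a pseudocount of 0.1 TPM the log2 change was -1.68. Irf7 was at 0.719%, 0.556% and 0.730% of the Irf3 level in A10KO, against 2.13%, 2.47% and 1.94% in WT. Irf7 (chromosome 7, 141262706 to 141266481, minus strand) overlaps Phrf1 on the other strand, which stood at 45.4 to 57.3 TPM in A10KO and 51.8 to 56.9 TPM in WT. The strand setting of the counting is not given in the sources used here, so reads of each overlapping pair may not be told apart.

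**Figure D3:**
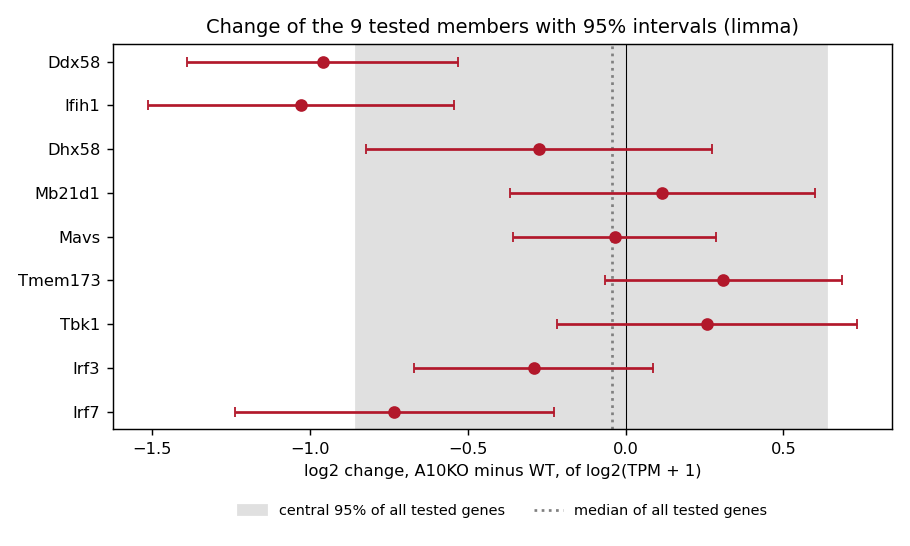
Log2 change (A10KO minus WT, of log2(TPM + 1)) of the 9 tested members with 95% intervals from limma; the grey band holds the central 95% of all tested genes, -0.85 to 0.64, and the dotted line is their median, -0.04. The points of Ddx58 and Ifih1 lie outside the band and the intervals of Ddx58 and Ifih1 leave out 0. That of Irf7 does too, but Irf7 passed the filter only through the WT libraries and so had to differ.

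The members spanned a wide range of levels. From highest to lowest mean TPM it was Irf3, Mavs, Tbk1, Tmem173, Ddx58, Mb21d1, Dhx58, Ifih1, Irf7 and Zbp1 in A10KO. In WT it was Irf3, Mavs, Ddx58, Tbk1, Tmem173, Ifih1, Mb21d1, Dhx58, Irf7 and Zbp1. In A10KO the library ranges of Mavs, Tbk1 and Tmem173 overlapped from neighbour to neighbour, and all other neighbours were separate. In WT the overlapping neighbours were Ddx58 with Tbk1, Tbk1 with Tmem173, Mb21d1 with Dhx58, and Irf7 with Zbp1. Ddx58 stood at rank 5 of the 10 in A10KO and rank 3 in WT, and Ifih1 at rank 8 in A10KO and rank 6 in WT. Set against all tested genes, the mean level of Ddx58 was above 39.0% of them in A10KO and above 57.5% in WT, and that of Irf3 above 75.8% in A10KO and 79.0% in WT.

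**Figure D4:**
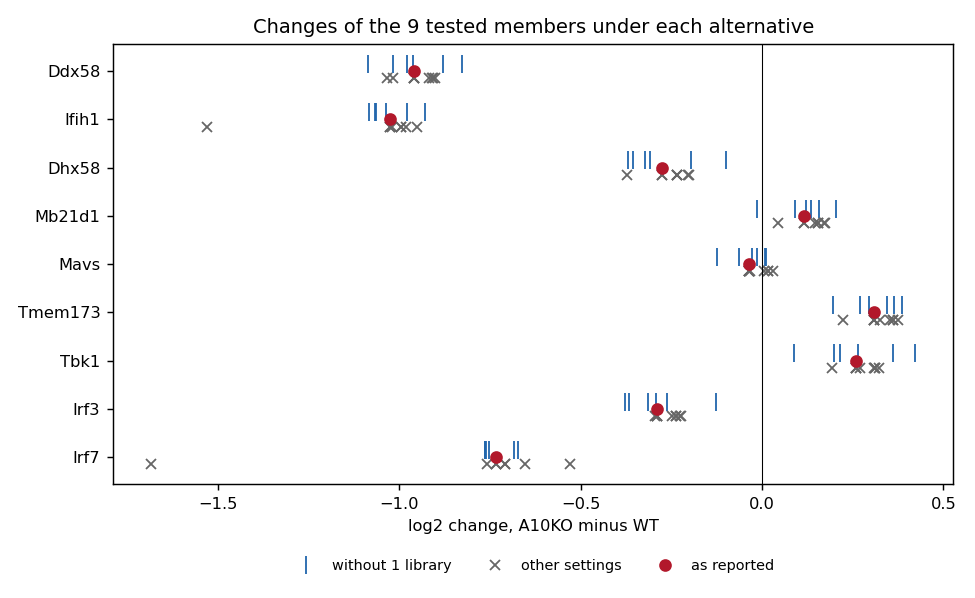
Log2 change (A10KO minus WT) of the 9 tested members as reported (red dots), without each library in turn (blue ticks) and under the other settings (grey crosses). Ddx58, Ifih1, Dhx58, Irf3 and Irf7 stay below 0 and Tmem173 and Tbk1 above 0 at every point, whereas Mavs and Mb21d1 cross 0; the crosses farthest left for Ifih1 (-1.53) and Irf7 (-1.68) are the pseudocount of 0.1 TPM.

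Other genes of the pathway were read from lists by role. Over all tested genes 6.27% were lower and 2.56% higher at an unadjusted p under 0.05, and 11.5% were lower and 5.61% higher with no overlap, and each count below stands beside these shares. Of 14 tested genes for other RNA sensors and their cofactors, 0 were called by limma, and 2 were lower and 0 higher at an unadjusted p under 0.05. Their median log2 change was -0.16. The largest changes were those of Anxa2, an annexin, at 219 ± 56.2 TPM in A10KO and 325 ± 52.6 TPM in WT, of the endosomal RNA receptor Tlr3, at 2.03 ± 0.951 TPM in A10KO and 3.07 ± 0.905 TPM in WT, and of Prkra, an activator of the RNA-dependent kinase PKR, at 25.3 ± 5.81 TPM in A10KO and 34 ± 3.51 TPM in WT (SD, n = 3 each). The RNA helicase gene Ddx3x, among the most abundant, stood at 60.29, 156.72 and 69.92 TPM in A10KO replicates 1, 13 and 14, against 66.23 to 68.46 TPM in WT, so 1 A10KO library carried its higher mean. The other 3 of the 17 genes on this list were under 1 TPM in all libraries, so these counts do not cover them. Among them Ddx60 stood at 0.01 to 0.03 TPM in A10KO and 0.12 to 0.41 TPM in WT. Trim25 and Tlr7, at 0.02 TPM or less, overlapped between the groups. Of 9 tested genes for other DNA sensors, 0 were called and 0 had an unadjusted p under 0.05 in either direction, with a median of -0.07. Among them Xrcc5, a subunit of the Ku DNA-end complex, stood at 34.5 ± 11.8 TPM in A10KO and 44.2 ± 4.13 TPM in WT, the helicase gene Ddx41 at 38.2 ± 11.8 TPM in A10KO and 47.0 ± 4.81 TPM in WT, and Mre11a, a nuclease of DNA break repair, at 14 ± 1.88 TPM in A10KO and 12.4 ± 0.305 TPM in WT. The chromatin protein gene Hmgb1 averaged 325 ± 70.8 TPM in A10KO and 324 ± 3.10 TPM in WT, and the stress granule gene G3bp1 78.5 ± 7.5 TPM in A10KO and 82.1 ± 2.40 TPM in WT. The other genes of the DNA sensor list were under the filter, so these counts do not cover them. Of these, Ifi204 stood at 0.06, 0 and 0.02 TPM in A10KO replicates 1, 13 and 14. Its WT values were 0.72, 0.73 and 0.33 TPM. Aim2 was at 0 TPM in A10KO and at 0.05, 1.1 and 0.05 TPM in WT replicates 1, 2 and 3. Ifi203, Zcchc3 and Tlr9 overlapped between the groups.

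Enzymes that remove or edit the cell's own nucleic acids gave no call. Of 12 tested, 0 were called by limma, 4 were lower and 0 higher at an unadjusted p under 0.05, and the median log2 change was -0.20. Adar, the RNA-editing enzyme that marks self RNA, stood at 11.4 ± 0.640 TPM in A10KO and 18.5 ± 1.29 TPM in WT (SD, n = 3 each; log2 change -0.66, limma adjusted p = 0.259). Rnaseh2a, the catalytic subunit of ribonuclease H2, stood at 48.6 ± 12.9 TPM in A10KO and 85.9 ± 6.0 TPM in WT (log2 change -0.84, adjusted p = 0.322), and its partner subunit Rnaseh2c at 62.8 ± 16.8 TPM in A10KO and 88.1 ± 7.72 TPM in WT (-0.52, adjusted p = 0.551). The groups did not overlap in 4 of the 12, all lower, these 3 among them. The lysosomal RNase gene Rnaset2b stood at 95.3 ± 23.8 TPM in A10KO and 86.1 ± 5.14 TPM in WT, with overlap.

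The partners of the adaptors and the kinase gave no call. Of 26 tested partners of MAVS and STING, 0 were called by limma, 1 was lower and 0 higher at an unadjusted p under 0.05, and the median log2 change was -0.02. The lower one was Ifi35, an interferon-induced protein gene, at 9.52 ± 1.05 TPM in A10KO and 17.8 ± 1.56 TPM in WT (SD, n = 3 each; log2 change -0.84, adjusted p = 0.205). Its binding partner Nmi stood at 10.4 ± 3.0 TPM in A10KO and 16.1 ± 4.17 TPM in WT, and the death-domain adaptor Tradd at 22.0 ± 4.37 TPM in A10KO and 28.9 ± 2.88 TPM in WT. The abundant RNA-binding protein gene Pcbp2 stood at 266 ± 45.8 TPM in A10KO and 252 ± 3.60 TPM in WT, and the trafficking gene Surf4 at 97.1 ± 11.6 TPM in A10KO and 99.6 ± 3.04 TPM in WT. Of 12 tested kinases and scaffolds beside TBK1, 0 were called and 0 had an unadjusted p under 0.05, with a median of 0.14. Ikbkg, the scaffold NEMO, stood at 13.7 ± 7.85 TPM in A10KO and 9.99 ± 2.27 TPM in WT, and its log2 change of 0.31 turned to -0.10 without A10KO replicate 13. Chuk, the kinase IKK-alpha, stood at 21.7 ± 5.47 TPM in A10KO and 17.8 ± 2.08 TPM in WT, the TBK1 adaptor Azi2 at 30.9 ± 6.26 TPM in A10KO and 26.4 ± 5.43 TPM in WT, and Ppp2ca, a phosphatase subunit, at 104 ± 11.9 TPM in A10KO and 110 ± 3.99 TPM in WT.

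Of 12 tested transcription factors beside IRF3 and IRF7, 0 were called by limma, 3 were lower and 0 higher at an unadjusted p under 0.05, and the median log2 change was -0.07. The 3 were Irf9, the DNA-binding part of the interferon-activated complex ISGF3, at 4.62 ± 2.41 TPM in A10KO and 12.2 ± 0.522 TPM in WT (SD, n = 3 each; log2 change -1.33, adjusted p = 0.297), the AP-1 gene Jun at 17.3 ± 7.08 TPM in A10KO and 39.7 ± 5.77 TPM in WT, and Irf1 at 7.61 ± 1.86 TPM in A10KO and 11.3 ± 0.366 TPM in WT. The NF-kappaB genes stood closer, Nfkb1 at 31.7 ± 10.4 TPM in A10KO and 31.9 ± 3.69 TPM in WT, and Rela at 26.8 ± 4.90 TPM in A10KO and 32.8 ± 2.36 TPM in WT. Of 15 tested interferon receptor, JAK, STAT and regulator genes, 0 were called, 3 were lower and 2 higher at an unadjusted p under 0.05, with a median of 0.005. Usp18, which removes ISG15 from proteins and damps interferon receptor signalling, stood at 1.53 ± 1.12 TPM in A10KO and 13.2 ± 1.90 TPM in WT (log2 change -2.58, limma adjusted p = 0.116). It passed the threshold in 1 alternative, with array quality weights (adjusted p = 0.0180). Stat3, which acts downstream of many cytokine receptors, stood at 23.3 ± 6.55 TPM in A10KO and 29.9 ± 5.37 TPM in WT. Of receptor chains for interferon lambda, Ifnlr1 stood at 0.587 ± 0.244 TPM in A10KO and 1.38 ± 0.230 TPM in WT, and it is 1 of the 3 counted as lower. Like Irf7 it passed the filter only through the WT libraries and so had to differ. Its fellow chain Il10rb stood at 42.5 ± 2.84 TPM in A10KO and 33.0 ± 1.12 TPM in WT.

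The ligands were nearly all listed at 0. Of 21 interferon genes in the table, of types I, II and III, 17 were at 0 TPM in all 6 libraries. Ifnb1, the first interferon gene that IRF3 induces, was listed at 0.09, 0 and 0 TPM in A10KO replicates 1, 13 and 14, and at 0 in all WT libraries. Among the others, Ifne was at 0.72 TPM in A10KO replicate 13 and at 0 in the rest. Ifnk was at 0.16 and 0.1 TPM in A10KO replicates 1 and 13 and at 0 in the rest. Ifnz was above 0 in all 6 libraries, at 0.76, 0.45 and 0.45 TPM in A10KO replicates 1, 13 and 14. Its WT values, in replicate order, were 0.55, 1.06 and 1 TPM, and the groups overlapped. A listed 0 need not mean absence, since depth is unknown and mt-Atp6, a mitochondrial gene that cells use, was also listed at 0 in all 6.

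Genes known to be induced through IRF3 or IRF7 held the only call of these lists. Of 9 tested, 1, Isg15, fell and 0 rose in the limma test, 4 were lower and 0 higher at an unadjusted p under 0.05, and the median log2 change was -0.76, the farthest from 0 of the pathway lists. Isg15, a ubiquitin-like protein gene, stood at 9.71, 5.82 and 10.95 TPM in A10KO replicates 1, 13 and 14, against 48.02, 59.35 and 53.65 TPM in WT replicates 1, 2 and 3 (log2 change -2.51, SE 0.23, limma adjusted p = 0.0207). The log2 change stayed between -2.67 and -2.27 over the 15 alternatives. The adjusted p ran from 0.00287 to 0.210, and the call was lost without A10KO replicate 1 (0.0591), without WT replicate 1 (0.0888), 2 (0.210) or 3 (0.135), with no filter (0.166) and under quantile normalization (0.0793). The chemokine gene Ccl5 stood at 0.70, 10.46 and 2.12 TPM in A10KO replicates 1, 13 and 14, against 13.59, 18.32 and 18.84 TPM in WT, and the antiviral gene Rsad2 at 2.52 ± 1.01 TPM in A10KO and 7.55 ± 2.49 TPM in WT (SD, n = 3 each). The chemokine gene Cxcl10 overlapped, at 6.14, 27.20 and 19.42 TPM in A10KO and 13.39, 11.15 and 17.88 TPM in WT, and its log2 change of 0.11 turned to -0.30 with A10KO replicate 13 left out, -0.07 with A10KO replicate 14 left out and -0.04 with WT replicate 2 left out.

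ZBP1 acts in necroptosis through RIPK3 and MLKL. Ripk3 was listed at 0 TPM in 5 of 6 libraries, with 0.09 TPM in A10KO replicate 14. Of 5 tested partners 0 were called by limma, and 1, Mlkl, which forms the membrane pore, was lower at an unadjusted p under 0.05, at 28.8 ± 4.96 TPM in A10KO and 39.4 ± 2.53 TPM in WT (SD, n = 3 each). The adaptor Fadd stood at 13.5 ± 2.75 TPM in A10KO and 16.8 ± 1.19 TPM in WT, and Casp8, the caspase that restrains necroptosis, at 28.3 ± 3.51 TPM in A10KO and 30.7 ± 1.73 TPM in WT.

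**Figure D5:**
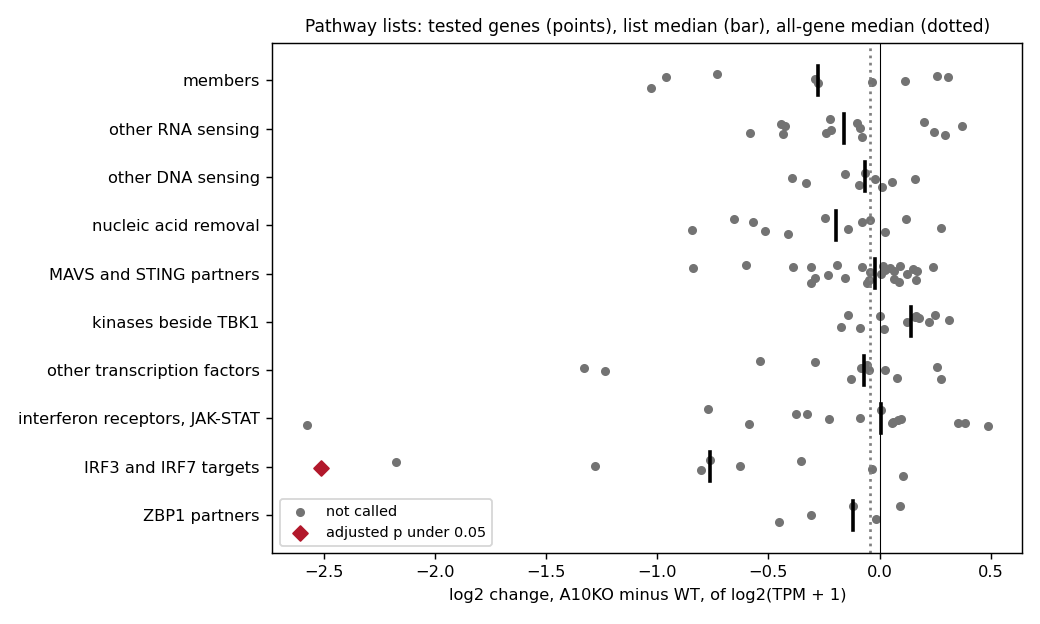
Log2 change (A10KO minus WT, of log2(TPM + 1)) of every tested gene in the pathway lists (points), with each list's median (black bar) and the median of all tested genes, -0.04 (dotted line). The only gene past the adjusted threshold is Isg15 (red diamond), among the IRF3 and IRF7 targets, whose median of -0.76 lies farthest left.

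The tested genes whose differences from the WT mean over the 6 libraries lay closest to those of Irf7 were Gla, a lysosomal galactosidase gene, Sfxn3, a mitochondrial carrier gene, Rhoc, a small GTPase gene, Ifi35 and Mov10, an RNA helicase gene. Their root mean square distances from Irf7 were 0.0677, 0.0786, 0.0897, 0.0947 and 0.0960 on the log2(TPM + 1) scale, against a median of 0.556 over 12067 genes. Gla stood at 3.77, 2.97 and 4.19 TPM in A10KO replicates 1, 13 and 14, against 6.79, 6.95 and 6.46 TPM in WT, and Mov10 at 9.22, 8.62 and 11.37 TPM in A10KO, against 16.61, 16.97 and 17.24 TPM in WT. These genes were chosen as the closest to Irf7 over all 6 libraries, A10KO and WT together. Their small distances and lower A10KO levels therefore follow from the choice and are not a separate result. Irf7 passed the filter only through the WT libraries and so had to differ. Being close on this scale also depends on the pseudocount, since Irf7 itself stood near 1 TPM.

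Markers of other cells and signs of RNA quality were read beside these values. Of the 10 melanocyte markers, all tested, 0 were called by limma, and 0 were lower and 1, Gpr143, higher at an unadjusted p under 0.05. Of 16 leukocyte marker genes, 4 table entries were at 0 in all libraries, among them Tyrobp and Cd3e, and Ptprc was at 0 in all but A10KO replicate 14, where it was 0.01 TPM. Their summed level was 3.76 to 6.81 TPM in A10KO and 6.28 to 9.16 TPM in WT. Of the list, 2 were tested and 0 were called by limma. The lysosomal gene Cd68 stood at 0.86 to 1.29 TPM in A10KO and 2.42 to 4.8 TPM in WT, and Coro1a, a coronin gene, at 0.96 to 4.55 TPM in A10KO and 0.78 to 1.64 TPM in WT, with opposite signs of change. Summed fibroblast markers were at 36.2 to 99.4 TPM in A10KO and 88.6 to 100.4 TPM in WT, of which Fbln1 held most, with Lum at 0 in every library. Of 4 tested, 0 were called, and 1 was lower and 0 higher at an unadjusted p under 0.05. Summed endothelial markers were at 134 to 180.1 TPM in A10KO and 131 to 153 TPM in WT, with Emcn and Erg at 0 in every library and Eng holding most. Of 3 tested, 0 were called, and 1 was higher and 1 lower at an unadjusted p under 0.05. The higher one, the receptor gene Tek, stood at 19.33 to 37.49 TPM in A10KO and 7.32 to 15.77 TPM in WT, and the lower one, Vwf, at 0.59 to 6.20 TPM in A10KO and 5.96 to 8.62 TPM in WT. Of 10 tested mitochondrially encoded genes, 0 were called by limma, 6 were higher and 0 lower at an unadjusted p under 0.05, and the median log2 change was 0.64. For these, mt-Nd3 averaged 2802 TPM in A10KO and 1406 TPM in WT, mt-Nd2 4269 and 2196 TPM, mt-Nd1 8154 and 4317 TPM, mt-Atp8 46861 and 27336 TPM, and mt-Co1 17106 and 16047 TPM, in the same order of groups. Of 10 tested immediate early genes, 0 were called, 3 were lower and 0 higher at an unadjusted p under 0.05, with a median of -0.49. Atf3 stood at 8.25 ± 0.807 TPM in A10KO and 17.9 ± 6.75 TPM in WT (SD, n = 3 each), Dusp1 at 2.70 ± 1.05 TPM in A10KO and 5.21 ± 2.02 TPM in WT, Ier3 at 63.9 ± 34.7 TPM in A10KO and 84.4 ± 32.0 TPM in WT, and Ier2 at 25.4 ± 5.55 TPM in A10KO and 38.1 ± 2.52 TPM in WT. The part of these in the members' values was not tested. With the mitochondrial genes removed and each library rescaled, the log2 changes of Ddx58, Ifih1 and Irf7 were -0.90, -1.02 and -0.76. That step only rescales the remaining genes, so it does not test RNA quality or other cells. Without A10KO replicate 13, which had the highest mitochondrial share, the changes of the same genes were -1.09, -1.08 and -0.67.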

How the data were processed

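The deposited TPM values came from the authors' series table, and 6 of 6 single-library tables held the same values. The unit was read from the values: they carry decimals and each library sums to between 969834 and 985045, although the table is presented as raw counts, so no count model was run. The tools named, per the submitters' processing notes, are RSEM, HISAT and fastp, and the build is GRCm38.p5. Tool versions, annotation and strand setting are not given. Groups follow the sample titles.

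Genes that reached 1 TPM in 3 or more libraries were tested with limma 3.58.1 (R 4.3.3; mean-variance trend, empirical Bayes) on log2(TPM + 1). A pseudocount of 0.1, filters, scalings, weights and leaving out each library were alternatives. The script was tested on simulated data. All members are named, with each other list's called genes, 3 largest changes and 2 highest means, and the 5 genes closest to Irf7; some genes this rule picks are counted in their lists but not reported here by name. Members and lists were chosen with earlier results of these data known. Genes named outside this rule were chosen after their values were seen. Coordinates are from GENCODE M21 (GRCm38), matched by gene identifier for all 10 members, and promoters from RefSeq, which shares the chromosome coordinates of that assembly.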

Additional observations from a re-analysis of the deposited data

How the results depend on the processing

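Over 15 alternatives, 0 of the tested members were called in any, and Ddx58, Ifih1, Dhx58, Irf3, Irf7, Tmem173 and Tbk1 kept their direction wherever they were tested. The count over all genes, 5 as reported, was 3 under quantile normalization, 25 with array quality weights and 2 to 8 without 1 library. The members' median, -0.28 as reported, was -0.035 with a filter of 5 TPM, which left 5 members, -0.20 under quantile normalization, -0.23 with mitochondrial genes removed, -0.21 with array quality weights and -0.32 to -0.10 without 1 library. With array quality weights Usp18 and mt-Nd3 passed the threshold. Some log2 changes turned sign, most of them small as reported, but also those of Ddx3x (0.37) and Ikbkg (0.31). Under median-of-ratios scaling, trimmed-mean scaling, quantile normalization and mitochondrial removal, in that order, Mavs was at 0.017, 0.017, 0.0049 and 0.029, Hmgb1 at 0.032, 0.032, 0.024 and 0.045, and Surf4 at 0.011, 0.011, 0.0067 and 0.023. Nfkb1 was at 0.0094 under quantile normalization and 0.0087 with mitochondrial genes removed, and mt-Co1 at -0.086 under quantile normalization. With array quality weights Cxcl10 was at -0.064, Hmgb1 at 0.020, mt-Co1 at -0.032 and Rnaset2b at -0.030. Without 1 library the ranges were -0.12 to 0.011 for Mavs, -0.013 to 0.20 for Mb21d1, -0.30 to 0.69 for Cxcl10, -0.049 to 0.63 for Ddx3x, -0.12 to 0.17 for Hmgb1, -0.099 to 0.57 for Ikbkg, -0.13 to 0.23 for mt-Co1, -0.28 to 0.20 for Nfkb1, -0.073 to 0.15 for Pcbp2, -0.070 to 0.28 for Rnaset2b and -0.11 to 0.059 for Surf4. The cause was not tested, except that a filter of 5 TPM tests fewer members. No paired analysis was possible because the groups share only 1 replicate number. TPM keeps no depth, so no detection limit can be given for the members near or under 1 TPM.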
